A study of Mus musculus with 12 samples.

Results

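The proteasome genes of activated mouse CD8 T cells were compared between cells deficient in Ezh2 (KO) and wild-type cells (WT) on day 3 and day 5 of culture. The 51 genes are those of the 25655 listed whose symbol is Psma, Psmb, Psmc, Psmd, Psme, Psmf or Psmg followed by a number. This rule uses names and not levels, but the genes were chosen with earlier results of these data known. They comprise 7 alpha ring genes, 3 constitutive catalytic beta genes, 4 structural beta genes, 3 immunoproteasome beta genes, 6 ATPase genes and 11 non-ATPase genes of the cap. A further 3 genes encode or copy the PA28 activator, 3 encode another activator or an inhibitor, 7 encode assembly chaperones and 2 encode core subunits of testis and thymus. The remaining 2, Psmc3ip and Psme3ip1, share the naming pattern but are not subunits.

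The libraries were made from splenic CD8 T cells of female C57BL/6 mice, with 3 libraries each of KO day 3, WT day 3, KO day 5 and WT day 5 cells. In all 4 groups naive cells (CD44low CD62Lhigh) received plate-bound antibody to TCR-β at 3 µg/ml and antibody to CD28 at 1 µg/ml for 2 days with IL-2 at 10 ng/ml, and then IL-2 alone. The culture times in the protocol do not add up to the day 5 of the titles, so "day 5" follows the titles. The sources used here give neither how Ezh2 was deleted nor whether replicates came from separate mice, so p-values measure only the spread between libraries, which may be technical. Each library counts 3′ end tags of messenger RNA and is given in CPM, scaled so that the tags of a library sum to 1000000. A transcript yields tags only from its end, so values were not divided by gene length and do not separate splice forms. With bulk RNA, fewer cells of a type and less RNA per cell cannot be told apart.

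The 26S proteasome degrades proteins tagged with ubiquitin. Its 20S core is a barrel of alpha rings, which gate the entrance, around beta rings, which hold the proteolytic sites. The 19S cap recognises ubiquitin, and its ring of ATPases unfolds substrates and threads them into the core. Lymphocytes and cells exposed to interferon-γ replace the catalytic subunits Psmb5, Psmb6 and Psmb7 with Psmb8, Psmb9 and Psmb10, which gives the immunoproteasome, and use the PA28 cap of Psme1 and Psme2. These exchanges favour peptides that fit MHC class I molecules. Ezh2 is a catalytic subunit of the Polycomb complex that places the repressive histone mark H3K27me3.

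Libraries held 1545391 to 2011247 tags, and the 3 KO day 5 libraries were the shallowest. KO day 5 replicate 2 stood apart from its 2 partners, since its chi-square over genes, divided by the degrees of freedom, was 5.21 and 5.38, and 1.34 to 2.45 for every other pair of replicates, so calls that change without it are given beside many of the results below. Ezh2 itself had 377, 334 and 311 CPM in KO and 357, 374 and 409 CPM in WT at day 3. At day 5 it had 159, 283 and 161 CPM in KO and 306, 319 and 316 CPM in WT. Ezh2 was called lower in KO at day 5 (log2 -0.70, limma adjusted p = 5.8e-04) and not at day 3 (log2 -0.16, adjusted p = 0.499). Replicate 2 was the KO day 5 library nearest to WT in Ezh2, and whether this relates to its standing apart was not tested. A 3′ tag counts a transcript whether or not an internal exon is missing, so these values do not check the deletion. The T cell markers Cd8a, Cd8b1, Cd3e, Cd3g and Cd3d were present in all libraries and summed to 1057 to 1330 CPM in KO and 1350 to 1417 CPM in WT at day 3, and to 1927 to 2412 CPM in KO and 1371 to 1383 CPM in WT at day 5. Erythroid and platelet markers summed to 15.9 to 55.8 CPM in KO and 5.33 to 16.6 CPM in WT at day 3, and to 17.5 to 38.5 CPM in KO and 10.2 to 20.4 CPM in WT at day 5. The 10 myeloid and dendritic markers summed to 94.6 to 140 CPM in KO and 37.9 to 51.6 CPM in WT at day 3, and to 219 to 292 CPM in KO and 65.5 to 68.6 CPM in WT at day 5. Of the 8 of these that were tested, 4 were called higher and 0 lower in KO at day 3 (median log2 1.15). At day 5, 7 were called higher and 0 lower (median log2 1.98). Most of that sum was MHC class II genes (H2-Aa, H2-Ab1, H2-Eb1 and Cd74), but the 7 calls at day 5 include markers other than these 4. Lyz2 was at 0 in all KO libraries. The B cell marker Ms4a1 was at 0 in all libraries. The part of other cells in the proteasome values was not tested.

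The start regions of 43 of the 51 genes were found in RefSeq (GRCm38.p6), each 300 bases from 250 before the transcript start. They were searched on both strands for the cores of 2 elements. The core of the antioxidant response element, TGACNNNGC, is bound by the Nfe2l1 and Nfe2l2 factors that drive proteasome genes, and the core of the interferon-stimulated response element (ISRE) is bound by interferon regulatory factors. The antioxidant core was in 6 of the 43 regions (14%), against 14% of all 27025 genes with such a region and 16.9% of the 9153 of these that passed the filter on low values. Those 6 are shown because they cover catalytic, cap, chaperone and activator genes, some called at day 5 and some not. Capitals mark the match, which lies on the strand shown or on its complement.
Psmb5: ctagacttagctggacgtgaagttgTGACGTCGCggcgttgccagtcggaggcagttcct
Psmb6: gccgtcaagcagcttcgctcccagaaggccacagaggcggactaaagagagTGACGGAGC
Psmc6: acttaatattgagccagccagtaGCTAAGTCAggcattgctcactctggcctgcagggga
Psmd12: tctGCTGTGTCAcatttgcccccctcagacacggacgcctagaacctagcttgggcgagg
Psmd9: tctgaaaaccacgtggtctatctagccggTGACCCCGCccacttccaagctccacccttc
Psme4: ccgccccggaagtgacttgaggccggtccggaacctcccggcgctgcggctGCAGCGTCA

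These stretches are chr14:54618008-54618067 (minus strand, Psmb5), chr11:70525297-70525356 (plus, Psmb6), chr14:45329574-45329633 (plus, Psmc6), chr11:107479278-107479337 (plus, Psmd12), chr5:123228130-123228189 (plus, Psmd9) and chr11:30771717-30771776 (plus, Psme4). All lie upstream of the transcript start except the last bases of the Psme4 stretch. At day 5, 4 of these 6 genes were lower in KO cells (Psmb5, Psmb6, Psmc6 and Psmd12), and 28 of the 36 tested genes without the match were lower too. The median log2 was -0.58 with the match and -0.45 without it.

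The interferon core was in 5 of the 43 regions (11.6%), those of Psmb3, Psmd4, Psmd9, Psme1 and Psmg4, against 3.99% of all genes and 3.92% of those that passed the filter. It was in none of the regions of Psmb8, Psmb9, Psmb10 and Psme2, which says only that these letters are not in those windows. At day 5, 2 of the 5 genes with this core were lower in KO cells (median log2 -0.17). Of the 37 tested genes without it, 30 were lower (median log2 -0.48). The match of Psme1 is shown because it is the one match among the 5 immunoproteasome genes. It lies on the complement at chr14:55578453-55578512 (plus strand), with its first base 9 bases after the transcript start.
Psme1: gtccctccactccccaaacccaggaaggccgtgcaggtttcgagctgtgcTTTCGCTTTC
An ETS core, CCGGAAG, was added after the values were seen. It was in 16 of the 43 regions (37.2%), against 9.93% of all genes and 21.4% of those that passed the filter, and 13 of the 16 were lower in KO cells at day 5, as were 19 of the 26 tested genes without it. The median log2 was -0.50 with the ETS core and -0.45 without it. Whether the change at day 5 differs with a match was not tested for any of these cores.

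At day 5 the proteasome genes as a group were lower in KO cells. Of the 49 genes that passed the filter on low values, 37 fell in KO against WT (limma, adjusted p under 0.05), where 22.9% of all 11417 tested genes fell, and 0 rose, where 16.5% of all genes did. At an unadjusted p under 0.05 the count of members higher was also 0, as it was with edgeR and DESeq2. The median log2 fold change was -0.48 over the members and -0.08 over all genes. The libraries of KO and WT did not overlap for 39 members, all lower in KO, against 26.7% of all genes lower and 21.0% higher without overlap. Without KO day 5 replicate 2 the same 37 fell and Psmd7 and Psme2 joined them. Under median-of-ratios scaling the day 5 median of all genes went from -0.08 to 0.01 and that of the members from -0.48 to -0.37. With this scaling 36 members fell and 0 rose. The calls over all genes changed to 2302 higher and 2098 lower in place of 1885 higher and 2616 lower. The member median was -0.40 with TMM scaling and -0.36 with quantile normalization.

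**Figure D1:**
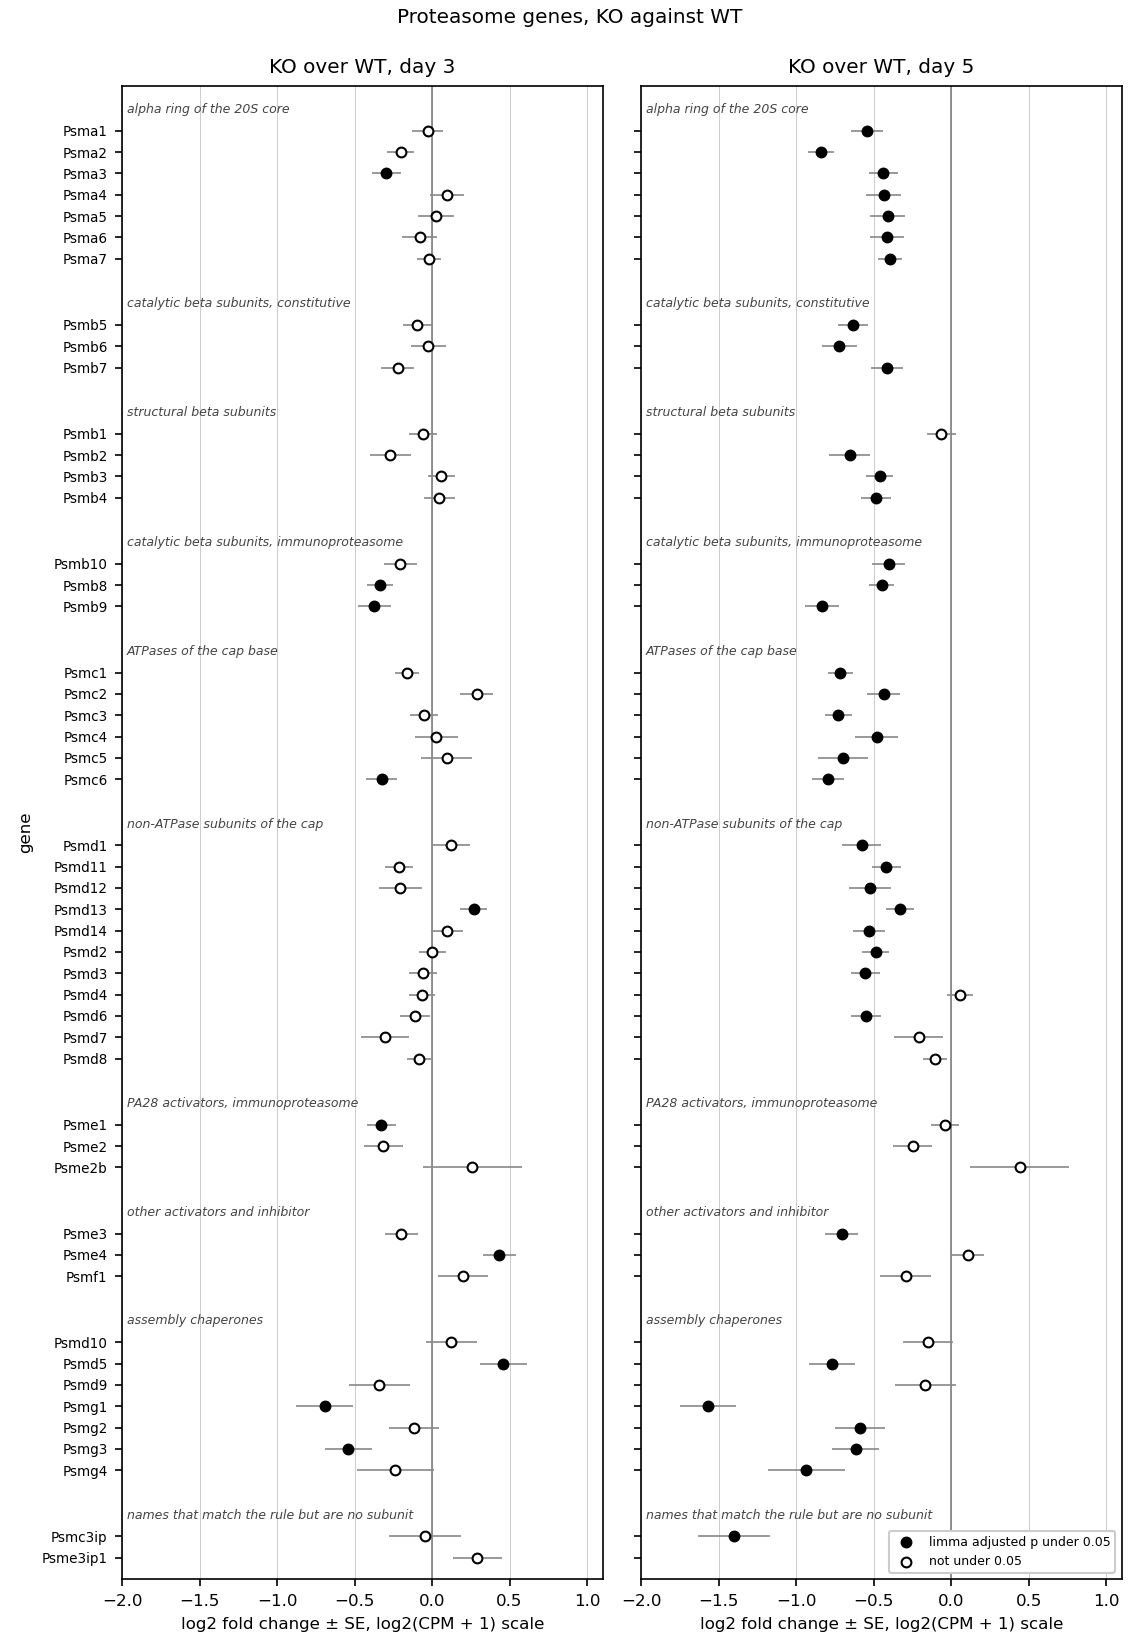
Log2 fold change of each tested gene in KO against WT at day 3 (left) and day 5 (right), on the log2(CPM + 1) scale, with bars of 1 standard error, genes grouped by role, and filled points for limma adjusted p under 0.05. At day 3 the points lie on both sides of 0, with 3 higher and 7 lower, and at day 5 37 of the 49 are lower.

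Fewer members were called at day 3. In KO against WT at day 3, 7 members fell, where 7.23% of all genes did, and 3 rose, where 11.2% of all genes did. The median was -0.06 over the members and -0.01 over all genes. The genes that fell were Psma3, Psmb8, Psmb9, Psmc6, Psme1, Psmg1 and Psmg3, and those that rose were Psmd5, Psmd13 and Psme4. Libraries did not overlap for 14 members lower in KO (19.1% of all genes) and 8 higher (19.0% of all genes). The counts were sensitive to single libraries: leaving out WT day 3 replicate 1, WT day 3 replicate 3 or KO day 3 replicate 3 left 3 lower calls, and 1 higher call was left without any single WT day 3 library or without KO day 3 replicate 2. Psmb8 and Psme4 passed with any single library left out. Psmb9 did not pass without any 1 of the WT day 3 libraries or without KO day 3 replicate 3 (adjusted p = 0.0577 to 0.0977), Psme1 without WT replicate 1 or KO replicate 1 (0.083 and 0.0579) and Psmg1 without WT replicate 2 or KO replicate 3 (0.0516 and 0.0721). Psmg3 did not pass without WT replicate 3 or KO replicate 1 (0.0515 and 0.0814), and Psma3 without WT replicate 1 or 3 or KO replicate 2 or 3 (0.103 to 0.128). Psmc6 did not pass without WT replicate 1 or 3 or any KO library of day 3 (0.0516 to 0.125). Psmd5 did not pass without any WT library of day 3 or without KO replicate 1 or 2 (0.0605 to 0.203). Psmd13 did not pass without any WT library of either day or without KO day 3 replicate 2 or 3 (0.0514 to 0.16).

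The same genes were compared between days within each genotype. These comparisons share libraries with the ones above. In KO cells 35 members fell at day 5 against day 3, where 19.7% of all genes fell, and 2 rose, Psme1 and Psme2b, where 15.4% of all genes rose. The median was -0.61 over the members and -0.04 over all genes. In WT cells 7 members fell (Psma3, Psmb7, Psmc1, Psmc4, Psmc5, Psmd2 and Psmd6), where 3.77% of all genes did, and 0 rose, where 7.17% of all genes did. At an unadjusted p under 0.05, 3 members were higher in WT at day 5, and edgeR called 1. The WT median was -0.16 over the members and 0.05 over all genes. The WT count went to 16 without KO day 5 replicate 2, which enters only the estimate of spread and the filter, and to 1 without WT day 3 replicate 1 or 2 or WT day 5 replicate 1. All 7 genes that fell in WT also fell in KO. Libraries of the 2 days did not overlap for 34 members lower (23.3% of all genes) and 3 higher (20.1% of all genes) at day 5 in KO, and for 20 lower (13.1% of all genes) and 6 higher (18.2% of all genes) at day 5 in WT.

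The change by day differed between genotypes for 23 members, each with a more negative change in KO (interaction, adjusted p under 0.05), where 8.85% of all genes had a more negative one. For 0 members it was more positive, where 4.01% of all genes were, although 1 passed at an unadjusted p under 0.05 and DESeq2 called 1. All 23 were among the 37 lower in KO at day 5. They span the alpha ring (4 of 7), the structural beta genes (2 of 4), the constitutive catalytic genes (2 of 3), the ATPases (5 of 6), the non-ATPase cap genes (6 of 11) and the chaperones (2 of 7), with Psme3 and Psmc3ip. None of the 5 immunoproteasome genes was among them. Psmb9 missed the threshold narrowly (-0.46, adjusted p = 0.052) and passed in 7 of 25 alternatives.

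The 7 genes of the alpha ring, Psma1 to Psma7, all fell in KO at day 5, by 0.40 to 0.84 on the log2 scale, although DESeq2 did not call Psma5 and Psma6 (adjusted p = 0.151 and 0.0979). Psma2 fell most. It had 209, 195 and 246 CPM in KO and 398, 384 and 380 CPM in WT at day 5, a log2 fold change of -0.84 ± 0.09 (SE; adjusted p = 8.0e-08). At day 3 it had 364, 343 and 347 CPM in KO and 431, 386 and 399 CPM in WT, which did not pass the test (adjusted p = 0.105) but did without KO day 5 replicate 2, which enters there only through the spread and the filter (adjusted p = 0.031). Psma7, the alpha gene with the most tags, had 367, 443 and 392 CPM in KO and 542, 504 and 531 CPM in WT at day 5. Every KO library lay below every WT library for each of the 7 genes at day 5. Psma3 also fell at day 3, with 262, 224 and 230 CPM in KO and 299, 273 and 306 CPM in WT (log2 -0.29 ± 0.09, adjusted p = 0.0316). Summed, the ring gave 1254 ± 99.3 CPM in KO and 1778 ± 48.9 CPM in WT at day 5 (SD, n = 3), and 1851 ± 96.1 CPM in KO and 1953 ± 60.8 CPM in WT at day 3.

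The constitutive catalytic genes fell with it. Psmb5, the chymotrypsin-like subunit, had 163, 125 and 157 CPM in KO and 234, 231 and 223 CPM in WT at day 5 (log2 -0.63 ± 0.09, adjusted p = 1.4e-05). Psmb6, the caspase-like subunit, had 73.8, 59.8 and 86.5 CPM in KO and 118, 118 and 125 CPM in WT at day 5 (log2 -0.72 ± 0.11, adjusted p = 2.8e-05). Psmb7, the trypsin-like subunit, had 146, 111 and 109 CPM in KO and 155, 161 and 171 CPM in WT at day 5 (log2 -0.42 ± 0.10, adjusted p = 0.00287). KO and WT libraries did not overlap for any of the 3. At day 3 none of them passed, with log2 differences of -0.10, -0.02 and -0.22 in that order and adjusted p of 0.531, 0.915 and 0.146. By day, all 3 fell in KO (log2 -0.76, -0.86 and -0.62), and in WT Psmb7 fell (log2 -0.42, adjusted p = 0.01). The WT call of Psmb7 was lost without the trend, without WT day 3 replicate 2 and without WT day 5 replicate 1 (adjusted p = 0.0775, 0.0652 and 0.0518). In WT Psmb5 passed without KO day 5 replicate 2 (log2 -0.22, adjusted p = 0.0338) and in a fit of WT libraries alone (adjusted p = 0.0421). DESeq2 on the recovered reads did not call Psmb7 at day 5 (adjusted p = 0.0534).

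Among the 4 beta genes that shape the ring without cutting, Psmb2, Psmb3 and Psmb4 fell at day 5 by 0.66, 0.46 and 0.48 on the log2 scale. Psmb1 did not pass in any comparison. It had 329, 256 and 280 CPM in KO and 298, 284 and 319 CPM in WT at day 5, and 327, 280 and 307 CPM in KO and 320, 305 and 326 CPM in WT at day 3. Its log2 difference at day 5 was -0.06 ± 0.09, and its libraries overlapped. The constitutive 20S core as a whole, 14 genes, summed to 2255 ± 11.6 CPM in KO and 3112 ± 55.2 CPM in WT at day 5, a difference of -27.5%. The testis subunit Psma8 had 2 tags over the 3 KO libraries and 0 over the 3 WT libraries at day 3, and 1 in KO and 2 in WT at day 5, and 0 tags allow up to 0.571 CPM in WT day 3 cells. The thymus subunit Psmb11 had 4 tags in KO and 1 in WT at day 3, and 0 in KO and 3 in WT at day 5, and 0 tags allow up to 0.632 CPM in KO day 5 cells. Neither was tested, and the limits cover counting error only.

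The 6 ATPases of the cap, Psmc1 to Psmc6, which unfold substrates, all fell in KO at day 5. Their sum was 799 ± 24.6 CPM in KO and 1278 ± 30.2 CPM in WT at day 5, a difference of -37.5%, and 1500 ± 17.7 CPM in KO and 1584 ± 67.2 CPM in WT at day 3. Psmc5 had 29.1, 57.3 and 41.7 CPM in KO and 64.9, 65.2 and 72.3 CPM in WT at day 5 (log2 -0.70 ± 0.16, adjusted p = 0.00157). The KO day 5 libraries of Psmc5 spread widely, and replicate 2 was the highest of them. Against day 3, when KO libraries had 118, 100 and 104 CPM, its change by day in KO was -1.36 ± 0.16 on the log2 scale (adjusted p = 9.1e-07), the most negative among the subunits of the core and cap. Psmc1, the ATPase with the most tags, had 359, 320 and 341 CPM in KO and 557, 584 and 533 CPM in WT at day 5 (log2 -0.71 ± 0.08, adjusted p = 2.7e-07). Psmc4 fell by 0.48 on the log2 scale (adjusted p = 0.00804), but did not pass without KO day 5 replicate 1 (adjusted p = 0.0572) or with DESeq2 (adjusted p = 0.121), and KO replicate 2 lay just under the lowest WT library. Psmc2 had 165, 165 and 151 CPM in KO and 124, 132 and 137 CPM in WT at day 3, higher in each KO library but not past the test (adjusted p = 0.0609, or 0.0303 without KO day 5 replicate 2). It fell in KO at day 5 (log2 -0.44), but not with DESeq2 (adjusted p = 0.0604). Psmc6 fell at both days, by 0.33 and 0.79 on the log2 scale.

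Of the 11 non-ATPase cap genes, 8 fell in KO at day 5, by 0.33 to 0.58 on the log2 scale. They were Psmd1, Psmd2, Psmd3, Psmd6, Psmd11, Psmd12, Psmd13 and Psmd14. DESeq2 did not call Psmd12 (adjusted p = 0.0554) or, as given below, Psmd13. Psmd14, the deubiquitinase that strips the ubiquitin chain, had 107, 88.2 and 119 CPM in KO and 152, 140 and 159 CPM in WT at day 5 (log2 -0.53 ± 0.10, adjusted p = 3.0e-04). At day 3 it had 154, 160 and 160 CPM in KO and 146, 147 and 150 CPM in WT. Psmd13 changed direction between days. It had 321, 344 and 365 CPM in KO and 290, 297 and 267 CPM in WT at day 3 (log2 0.27 ± 0.09, adjusted p = 0.0402), and 238, 189 and 217 CPM in KO and 270, 264 and 272 CPM in WT at day 5 (log2 -0.33 ± 0.09, adjusted p = 0.00541). The interaction of Psmd13 was -0.60 (adjusted p = 0.0027). Its call at day 3 was lost in 10 of 25 alternatives, and its call at day 5 under median-of-ratios scaling, quantile normalization and DESeq2.

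Psmd4, a ubiquitin receptor of the cap, was not called in any comparison. It had 312, 294 and 291 CPM in KO and 271, 291 and 301 CPM in WT at day 5 (log2 0.06 ± 0.08, adjusted p = 0.637), and its libraries overlapped at both days. Psmd8 had 258, 255 and 267 CPM in KO and 283, 276 and 280 CPM in WT at day 5, lower in each KO library by little (log2 -0.11 ± 0.08, adjusted p = 0.302). Psmd7, the partner of Psmd14 in the cap, had 146, 288 and 158 CPM in KO and 207, 215 and 231 CPM in WT at day 5. Replicate 2 alone was above the WT libraries. With all libraries the log2 difference was -0.21 ± 0.16 (adjusted p = 0.311), and without replicate 2 it was -0.52 ± 0.08 (adjusted p = 1.2e-05). Summed over the 17 genes of the cap, KO had 2739 ± 88.2 CPM and WT 3713 ± 55.5 CPM at day 5.

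**Figure D2:**
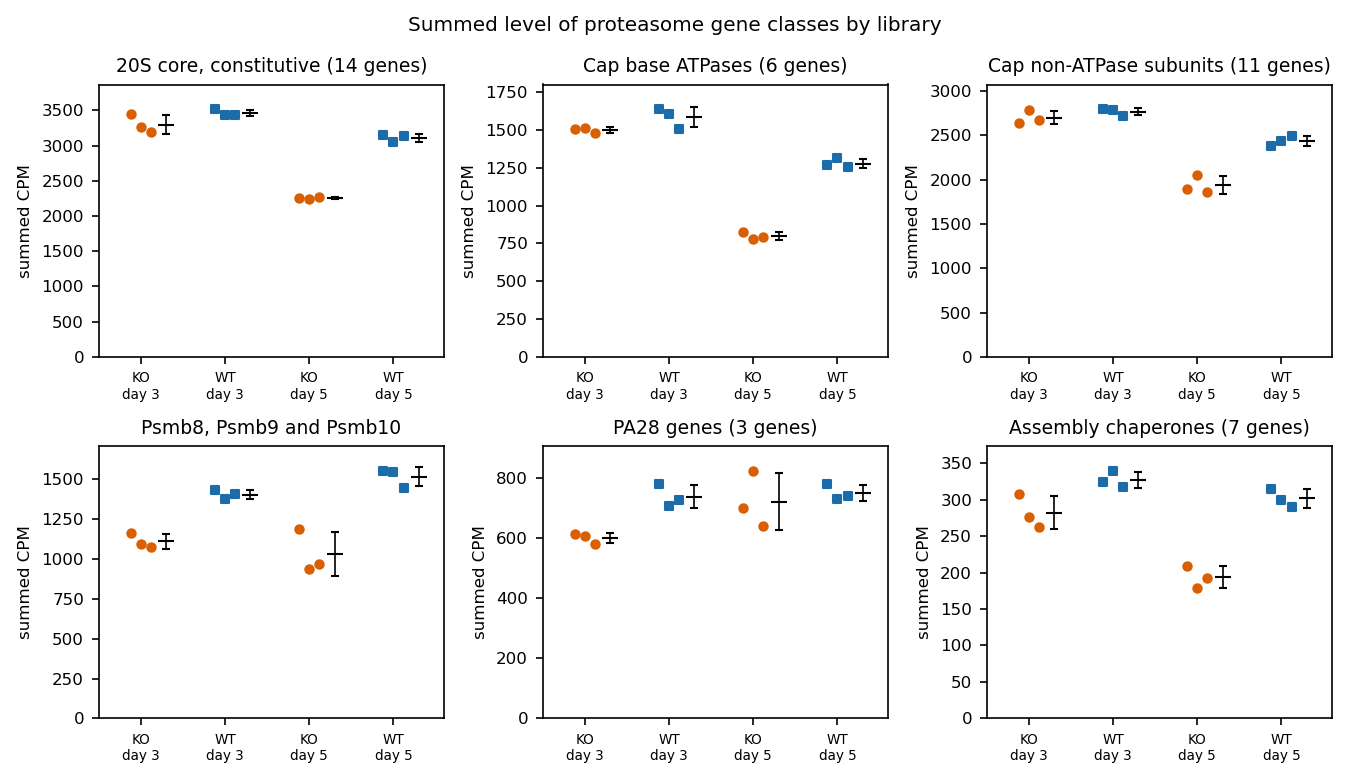
Summed CPM of 6 classes in each library, KO (circles) left of WT (squares) at day 3 and then at day 5, with the mean and SD of 3 libraries as a bar beside the points; each axis starts at 0. At day 5 the KO libraries lie below all WT libraries in every panel except that of the PA28 genes.

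The assembly chaperones, which build the core and cap and leave the finished particle, included the lowest ratio. Psmg1, which with Psmg2 starts the alpha ring, had 14.9, 11.1 and 13.9 CPM in KO and 43.8, 46.8 and 33.9 CPM in WT at day 5 (log2 -1.57 ± 0.18, adjusted p = 5.3e-07). At day 3 it had 35.3, 35.2 and 25.2 CPM in KO and 53.3, 55.9 and 45.9 CPM in WT (log2 -0.69 ± 0.18, adjusted p = 0.0103). The groups did not overlap at either day, and the interaction of Psmg1 was lost in 7 of 25 alternatives. Psmg2, Psmg3 and Psmg4 also fell at day 5, by 0.59, 0.62 and 0.94 on the log2 scale, although DESeq2 did not call Psmg2 (adjusted p = 0.128). Psmg4 varied among KO libraries, with 29.8, 12.9 and 31.6 CPM against 46.2, 41.8 and 47.5 CPM in WT, and replicate 2 was the low one. Without it the day 5 difference of Psmg4 was -0.54 on the log2 scale (adjusted p = 0.023). The change by day of Psmg3 and of Psmg4 in KO did not pass without replicate 2 (adjusted p = 0.0502 for Psmg3 and 0.137 for Psmg4).

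Psmd5, a chaperone of the ATPase ring, had the most negative interaction of the genes that encode proteasome parts or helpers. It had 64.6, 49.8 and 45.4 CPM in KO and 37.3, 37.1 and 39.7 CPM in WT at day 3, higher in every KO library (log2 0.46 ± 0.15, adjusted p = 0.0366). At day 5 it had 29.1, 25.9 and 24.6 CPM in KO and 43.2, 46.3 and 48.0 CPM in WT, lower in every KO library (log2 -0.77 ± 0.15, adjusted p = 3.1e-04). The interaction was -1.23 ± 0.21 (adjusted p = 4.4e-04) and held in all 25 alternatives, while the rise at day 3 was lost in 6. The other ATPase ring chaperones, Psmd9 and Psmd10, did not pass in any comparison, with day 5 log2 differences of -0.17 and -0.15. Psmc3ip, a cofactor of meiotic recombination that is no proteasome subunit, had 4.53, 6.78 and 8.84 CPM in KO and 22.2, 17.3 and 17.5 CPM in WT at day 5 (log2 -1.40 ± 0.23, adjusted p = 4.7e-05). Psme3ip1, a binding partner of Psme3, did not pass in any comparison.

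Psmb8 and Psmb9 were lower in KO at both days and Psmb10 at day 5, and with all libraries none of the 3 was called different between days in KO. Psmb8 had 723, 664 and 675 CPM in KO and 890, 843 and 868 CPM in WT at day 3 (log2 -0.33 ± 0.08, adjusted p = 0.00652). At day 5 Psmb8 had 761, 645 and 597 CPM in KO and 955, 929 and 842 CPM in WT (log2 -0.45 ± 0.08, adjusted p = 1.5e-04). All KO libraries lay below all WT libraries at each day. Psmb9 had 359, 360 and 324 CPM in KO and 449, 448 and 451 CPM in WT at day 3 (log2 -0.37 ± 0.11, adjusted p = 0.0205). At day 5 it had 354, 225 and 299 CPM in KO and 509, 530 and 505 CPM in WT (log2 -0.84 ± 0.11, adjusted p = 2.5e-06). WT libraries of Psmb9 agreed closely while KO day 5 libraries spread, with replicate 2 lowest. Psmb10 had 82.0, 73.0 and 76.0 CPM in KO and 93.0, 84.7 and 89.0 CPM in WT at day 3, below WT in each library but not past the test (log2 -0.21 ± 0.11, adjusted p = 0.195). At day 5 it had 75.1, 66.0 and 70.8 CPM in KO and 91.1, 89.7 and 100 CPM in WT (log2 -0.40 ± 0.11, adjusted p = 0.00452).

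Between days, none of these 3 genes was called in either genotype with all libraries in the fit. In KO cells the change from day 3 to day 5 was -0.05 for Psmb8 (adjusted p = 0.692), -0.27 for Psmb9 (adjusted p = 0.0611) and -0.12 for Psmb10 (adjusted p = 0.402), while 13 of the 14 constitutive core genes fell. The KO change of Psmb9 was -0.42 without KO day 5 replicate 1, which passed (adjusted p = 0.00224), and -0.09 without replicate 2 (adjusted p = 0.363). In WT cells the changes were 0.07, 0.19 and 0.07, with no call. That of Psmb9 in WT passed in a fit of WT libraries alone (adjusted p = 0.0165) and without KO day 5 replicate 2 (adjusted p = 0.0459). The genotype by day interaction did not pass for any of them, at -0.11 for Psmb8 (adjusted p = 0.596), -0.46 for Psmb9 (adjusted p = 0.052) and -0.20 for Psmb10 (adjusted p = 0.455). That of Psmb9 passed in 7 of 25 alternatives, also without KO day 5 replicate 2 (-0.29, adjusted p = 0.0499). The fall of Psmb9 at day 3 was lost in 6 of 25 alternatives, that of Psmb8 in 1, and the fall of Psmb10 at day 5 in 1. Whether the change by day of an immunoproteasome gene differed from that of its constitutive counterpart was not tested.

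None of the PA28 genes passed at day 5. Psme1 had 375, 404 and 383 CPM in KO and 518, 474 and 467 CPM in WT at day 3, a fall of 0.33 on the log2 scale (adjusted p = 0.0149) with no overlap. At day 5 it had 461, 553 and 406 CPM in KO and 500, 468 and 478 CPM in WT, which overlapped (log2 -0.04 ± 0.09, adjusted p = 0.779). From day 3 to day 5 Psme1 rose in KO by 0.28 on the log2 scale (adjusted p = 0.0214), but did not pass without KO day 5 replicate 2, the highest library (0.16, adjusted p = 0.09), or without KO day 3 replicate 1 or 3 (adjusted p = 0.0747 and 0.0566). Psme2 had 224, 167 and 165 CPM in KO and 233, 215 and 238 CPM in WT at day 3 (log2 -0.31 ± 0.13, adjusted p = 0.0881), and 155, 216 and 191 CPM in KO and 243, 231 and 192 CPM in WT at day 5 (log2 -0.25 ± 0.13, adjusted p = 0.124). Without KO day 5 replicate 2 both differences of Psme2 passed (adjusted p = 0.0292 at day 3 and 0.0164 at day 5). Psme2b, a processed copy of Psme2 that may share its reads, had 85.4, 54.9 and 42.3 CPM in KO and 36.2, 30.1 and 71.2 CPM in WT at day 5, and these overlapped. Its rise by day in KO (log2 1.14, adjusted p = 0.00747) did not pass without KO day 3 replicate 1 or KO day 5 replicate 1 (adjusted p = 0.078 and 0.0519).

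Of the other activators, Psme3 fell at day 5 and Psme4 rose at day 3. Psme3, the nuclear PA28 relative, had 75.1, 61.7 and 70.8 CPM in KO and 112, 115 and 112 CPM in WT at day 5 (log2 -0.71 ± 0.10, adjusted p = 1.3e-05). Psme4, the PA200 cap linked to histone degradation, had 145, 159 and 139 CPM in KO and 107, 108 and 112 CPM in WT at day 3 (log2 0.43 ± 0.10, adjusted p = 0.00521), a rise that held in all 25 alternatives. At day 5 it had 106, 109 and 136 CPM in KO and 108, 105 and 112 CPM in WT, which overlapped (adjusted p = 0.452). Psmf1, an inhibitor of the core, did not pass in any comparison, with 27.2, 22.2 and 31.0 CPM in KO and 36.2, 31.2 and 31.1 CPM in WT at day 5.

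**Figure D3:**
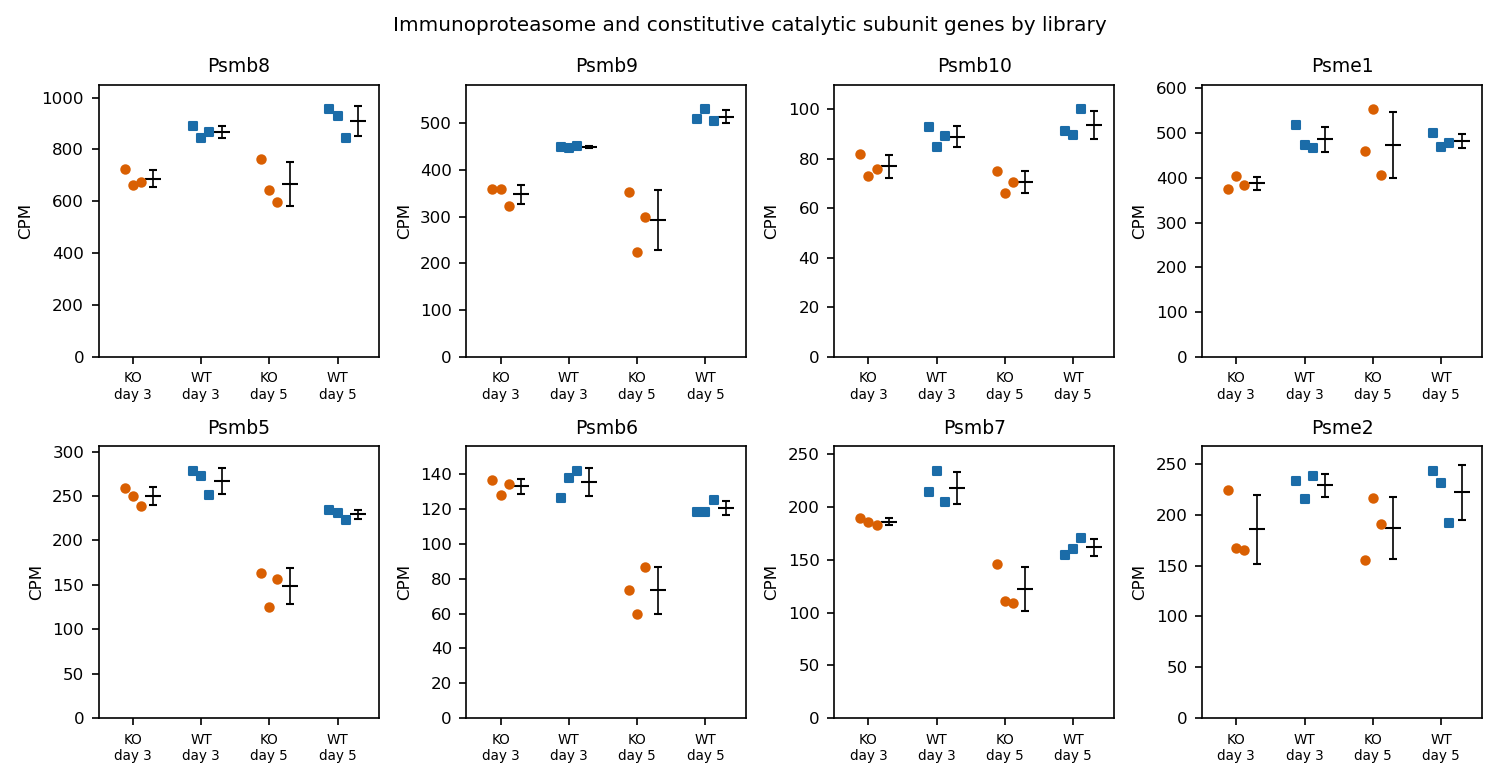
CPM per library of Psmb8, Psmb9, Psmb10 and Psme1 (top) and Psmb5, Psmb6, Psmb7 and Psme2 (bottom), KO (circles) left of WT (squares) at day 3 and then at day 5, with mean and SD of 3 libraries. All KO libraries of Psmb8, Psmb9, Psmb10 and Psmb7 lie below all WT libraries at both days, although Psmb10 and Psmb7 did not pass the test at day 3. Psmb5 and Psmb6 separate at day 5, and Psme1 separates at day 3.

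These levels give the balance between catalytic forms, as far as tags of different genes can be compared without a length scale. Psmb8, Psmb9 and Psmb10 made up 66.2 ± 0.34% of the tags of the 6 catalytic genes in KO and 69.4 ± 1.12% in WT at day 3 (SD, n = 3), with no overlap (65.9 to 66.6% in KO, 68.1 to 70.2% in WT). At day 5 the share was 75.0 ± 1.47% in KO and 74.8 ± 1.00% in WT, with overlap (73.3 to 76.0% in KO, 73.6 to 75.4% in WT). The share was thus higher at day 5 than at day 3 in every library of each genotype. By pair, Psmb8 had 2.75 ± 0.09 tags per Psmb5 tag in KO and 3.25 ± 0.19 in WT at day 3, and 4.54 ± 0.68 in KO and 3.96 ± 0.16 in WT at day 5. Psmb9 had 2.62 ± 0.20 tags per Psmb6 tag in KO and 3.33 ± 0.20 in WT at day 3, and 4.01 ± 0.70 in KO and 4.28 ± 0.22 in WT at day 5. Psmb10 had 0.414 ± 0.020 tags per Psmb7 tag in KO and 0.411 ± 0.042 in WT at day 3, and 0.585 ± 0.068 in KO and 0.578 ± 0.016 in WT at day 5. The first 2 ratios did not overlap between genotypes at day 3, and all 3 overlapped at day 5.

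The PA28 genes were also set against the alpha ring. Psme1 and Psme2 together had 0.526 ± 0.043 tags per alpha ring tag in KO and 0.396 ± 0.012 in WT at day 5, with every KO library above every WT library. At day 3 they had 0.310 ± 0.003 in KO and 0.366 ± 0.007 in WT, with every KO library below every WT library. The day 5 ratio in KO combined a lower ring sum with PA28 levels that were not called different from WT. These ratios are descriptions and carry no test.

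**Figure D4:**
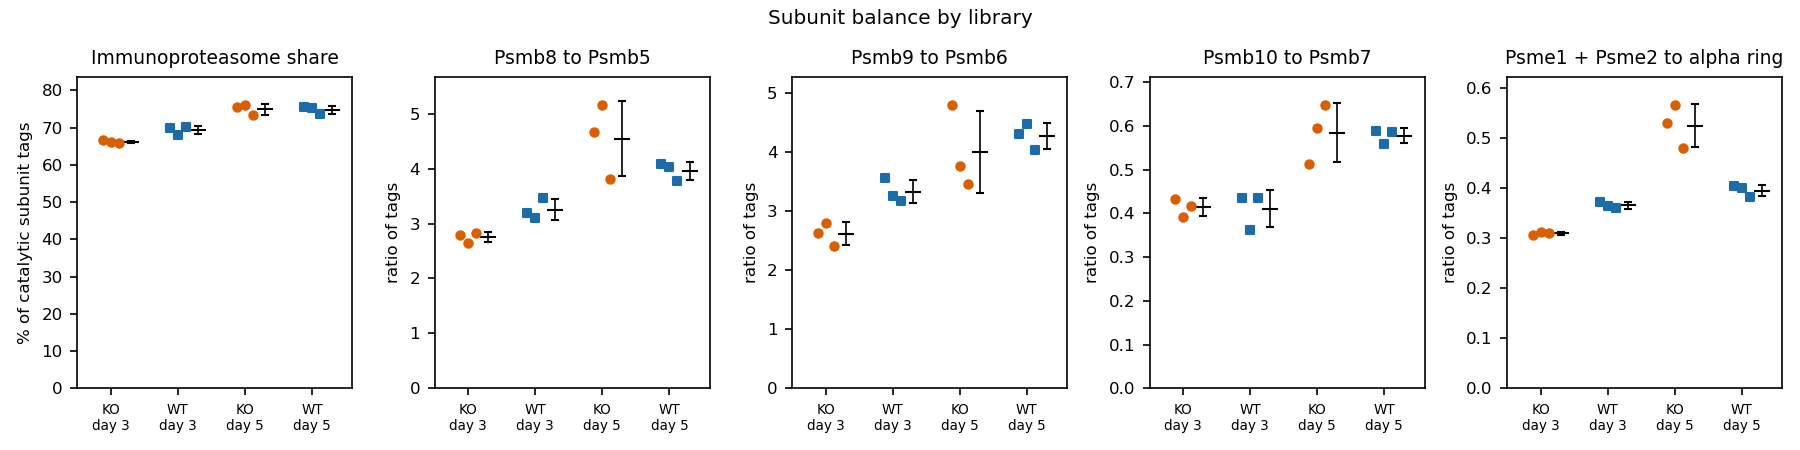
Share of immunoproteasome tags among the tags of the 6 catalytic genes (left), tag ratios of the 3 catalytic pairs, and the ratio of Psme1 and Psme2 tags to alpha ring tags (right) in each library, KO (circles) left of WT (squares) at day 3 and then at day 5, with mean and SD. The share differs between genotypes at day 3, and the PA28 ratio lies below WT at day 3 and above WT at day 5 in KO libraries.

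Psmb9 lies back to back with Tap1, the peptide transporter subunit that feeds the products of the proteasome to MHC class I molecules. Their RefSeq transcript starts are 226 bases apart on chromosome 17 (34187330 for Psmb9 on the minus strand, 34187556 for Tap1 on the plus strand), and the start regions of the 2 genes share 275 bases. The stretch chr17:34187330-34187580 of GRCm38.p6 is shown on the strand of Psmb9, because it holds both transcript starts. Capitals run from the start of Tap1 to the start of Psmb9.
Psmb9: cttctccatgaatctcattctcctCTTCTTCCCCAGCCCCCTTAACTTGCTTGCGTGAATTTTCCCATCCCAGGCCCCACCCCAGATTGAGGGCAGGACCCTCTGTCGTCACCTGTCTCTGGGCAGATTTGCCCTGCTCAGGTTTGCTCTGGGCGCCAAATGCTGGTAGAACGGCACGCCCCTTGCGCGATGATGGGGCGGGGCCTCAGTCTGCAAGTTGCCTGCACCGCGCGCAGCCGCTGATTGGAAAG

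Psmb9 was called in KO cells at day 5 and Tap1 was not. Tap1 had 314, 298 and 288 CPM in KO and 289, 257 and 259 CPM in WT at day 5, which did not pass the test (log2 0.16, adjusted p = 0.132), while Psmb9 fell. The ratio of Psmb9 to Tap1 tags was 1.13, 0.754 and 1.04 in KO and 1.76, 2.06 and 1.95 in WT at day 5, a log2 difference of -1.0 with no overlap. At day 3 it was 2.01, 1.96 and 1.91 in KO and 2.33, 2.08 and 2.12 in WT, a log2 difference of -0.15, also with no overlap. The two-sided exact permutation test gave p = 0.1 at each day, the smallest that 3 against 3 libraries allow. This pair was chosen after the values of Psmb9 were seen.

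Of 21 genes of the wider class I pathway, 5 were higher and 5 lower in KO at day 5, with a median log2 fold change of 0.10. Of all genes, 16.5% were higher and 22.9% lower, so the lower count is near the background. The genes that rose were H2-K1, H2-D1, H2-T22, B2m and Tapbp, which encode the heavy chains, their partner and the loading bridge. B2m had 7729, 8734 and 7215 CPM in KO and 5260, 5175 and 4747 CPM in WT at day 5 (log2 0.64, adjusted p = 3.3e-07), and H2-K1 had 1771, 2342 and 1708 CPM in KO and 1187, 1251 and 1291 CPM in WT (log2 0.63, adjusted p = 1.5e-05). Those that fell were Tapbpl, Erap1, Canx, Pdia3 and Lap3. Lap3, an aminopeptidase, had 20.7, 19.1 and 19.0 CPM in KO and 40.9, 37.3 and 41.8 CPM in WT (log2 -0.99, adjusted p = 1.6e-05). At day 3, 2 of the 21 rose (Calr and H2-Q7) and 2 fell (Tapbpl and Erap1). Of all genes, 11.2% rose and 7.23% fell at day 3, so these counts are near the background. Reads of H2 genes may be shared between near copies.

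**Figure D5:**
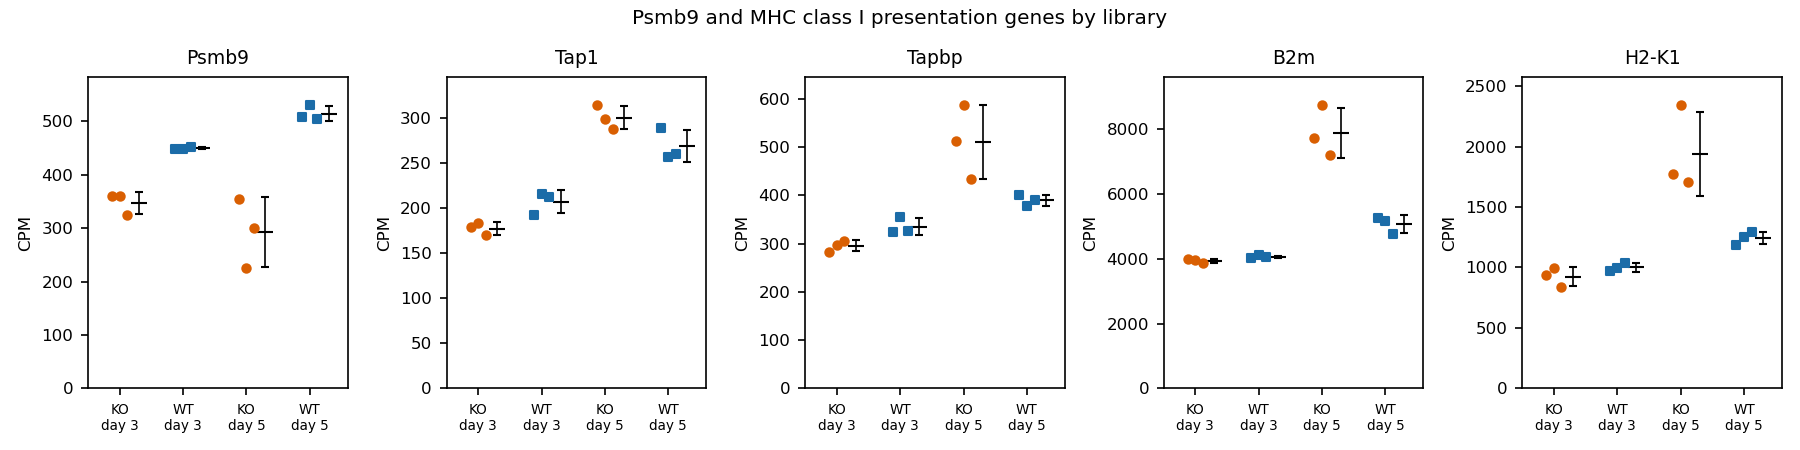
CPM per library of Psmb9, Tap1, Tapbp, B2m and H2-K1, KO (circles) left of WT (squares) at day 3 and then at day 5, with mean and SD of 3 libraries. At day 5 Psmb9 is lower in KO, Tapbp, B2m and H2-K1 are higher in KO, and Tap1 was not called.

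Of 27 interferon genes and regulators, 14 rose and 5 fell in KO at day 5, with a median log2 fold change of 0.38. At day 3, 8 rose and 3 fell, with a median of -0.02. Of all genes, 16.5% rose and 22.9% fell at day 5, and 11.2% rose and 7.23% fell at day 3. The count that fell at day 5 is thus near the background. Irf2, a factor that binds interferon response elements, had 305, 305 and 268 CPM in KO and 120, 126 and 124 CPM in WT at day 5 (log2 1.24, adjusted p = 1.9e-09). The antiviral gene Mx1 had 53.1, 43.2 and 43.0 CPM in KO and 4.09, 3.90 and 7.35 CPM in WT (log2 2.99, adjusted p = 3.0e-08). The genes that fell included Irf8, Igtp, Iigp1 and the receptor chain Ifngr2. Irf1, an activator of Psmb9 and Tap1 in other cells and named here after its values were seen, had 217, 129 and 163 CPM in KO and 183, 164 and 166 CPM in WT (adjusted p = 0.825).

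Of 17 tested partners of the proteasome outside the Psm names, 6 fell and 1 rose in KO at day 5 (median log2 -0.22). Of all genes, 22.9% fell and 16.5% rose at day 5. At day 3, 1 of the 17 fell, where 7.23% of all genes did, and 0 rose, where 11.2% did. Uchl5, a deubiquitinase docked on the cap, had 36.9, 35.8 and 46.1 CPM in KO and 78.9, 84.2 and 87.6 CPM in WT at day 5 (log2 -1.07, adjusted p = 2.2e-07). Usp14, the other docked deubiquitinase, had 60.2, 84.5 and 65.1 CPM in KO and 121, 115 and 111 CPM in WT (log2 -0.74, adjusted p = 4.9e-05). Pomp, the maturation factor of the core, Akirin2, which brings proteasomes into the nucleus, Txnl1 and Fbxo7 fell as well. Ngly1, the enzyme that activates Nfe2l1, rose, with 44.0, 49.9 and 41.1 CPM in KO and 23.4, 26.8 and 28.8 CPM in WT (log2 0.75, adjusted p = 0.00238). Nfe2l1 itself, named after its values were seen, had 69.2, 77.1 and 55.6 CPM in KO and 73.6, 70.2 and 62.2 CPM in WT at day 5 (adjusted p = 0.861). Nfe2l2 was the gene that fell at day 3, with 41.8, 42.7 and 33.4 CPM in KO and 64.6, 60.9 and 62.4 CPM in WT (log2 -0.67, adjusted p = 0.00151).

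Of 26 tested genes that supply ubiquitin or deliver substrates, 4 rose and 7 fell in KO at day 5 (median log2 -0.07), where 16.5% of all genes rose and 22.9% fell, so these counts are near the background. At day 3, 2 rose and 2 fell, where 11.2% of all genes rose and 7.23% fell, which is also near the background. The conjugating enzyme gene Ube2r2 was among those that rose. The shuttle gene Rad23b had 151, 161 and 148 CPM in KO and 271, 265 and 237 CPM in WT (log2 -0.74, adjusted p = 4.5e-07), and Ube2k fell too. For all 4 lists the median over all genes tested was -0.08 at day 5 and -0.01 at day 3.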

How the data were processed

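The authors deposited 1 table per library, named TPM. Within a library all values (100%) are multiples of a single step to within 0.001 read and add up to 1000000, so the deposited values are taken as CPM, made by the authors from whole reads that were recovered here. GRCm39 and mm10 are listed in the submitters' processing notes, with no role. The aligner, counter and strand setting were not given in the sources used here, so reads of near copies and overlapping genes may be divided in an unknown way. The design assumed CPM.

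A gene was tested where 3 or more libraries had a CPM of 1 or more (11417 tested, 14238 not). Values of log2(CPM + 1), computed from the deposited CPM and understating changes of low genes, were fitted with limma 3.58.1 (R 4.3.3) with 1 mean per group over all 12 libraries, trended moderation and 21.1 degrees of freedom. The two-sided p-values were adjusted across the whole table (Benjamini-Hochberg), with a threshold of 0.05. Counts over all genes tested stand beside members' counts as background. 1 read was worth 0.497 to 0.647 CPM, and limits for 0 tags use 3 reads. The method was tested on simulated counts in which only a small set of genes changed, in KO day 5 libraries only. That setting does not cover a broad shift over many genes or a library like KO day 5 replicate 2.

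The members and lists were chosen with earlier results of these data known. Named are the immunoproteasome and constitutive catalytic genes, every other member by class or call, and, of each list, those with the smallest adjusted p or in a count of 5 or fewer, with exceptions stated. Alternatives were pseudocounts of 0.1 and 5, no filter, a filter at CPM of at least 5, median-of-ratios, TMM and quantile scaling, a replicate block, no trend, a robust prior, only the libraries compared, edgeR 4.0.16 and DESeq2 1.42.0 on recovered reads, and leaving out each library. The closing section gives the correlation of deviations between same-numbered libraries. Columns of other samples numbered 0. No protein sequences were used here. Some genes of the lists are not reported here by name.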

Additional observations from a re-analysis of the deposited data

Results flagged for a closer look

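For 23 genes the difference between KO and WT was not the same at day 5 as at day 3, by the interaction term of the limma fit (adjusted p under 0.05 over all genes tested). The values below are the KO minus WT log2 difference at day 5 less that at day 3, and each is negative. In the alpha ring it was -0.515 for Psma1, -0.637 for Psma2, -0.532 for Psma4 and -0.378 for Psma7. In the beta rings it was -0.538 for Psmb5, -0.698 for Psmb6, -0.52 for Psmb3 and -0.531 for Psmb4. Among the ATPases it was -0.551 for Psmc1, -0.724 for Psmc2, -0.675 for Psmc3, -0.791 for Psmc5 and -0.469 for Psmc6. Among the other cap genes it was -0.698 for Psmd1, -0.596 for Psmd13, -0.625 for Psmd14, -0.49 for Psmd2, -0.496 for Psmd3 and -0.44 for Psmd6. It was -0.509 for the activator Psme3, -1.227 for Psmd5 and -0.876 for Psmg1 among the chaperones, and -1.355 for Psmc3ip, which is no subunit. With 1 library left out at a time, the interaction of Psma1, Psma4, Psma7, Psmb4, Psmc5, Psmc6, Psmd3, Psmd6, Psme3 and Psmg1 missed the threshold in at least 1 case, with adjusted p of 0.0505 to 0.102, and that of the other 13 passed in every case.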

How the results depend on the processing

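No called difference changed sign. Uncalled values near 0 did, among them the day 5 difference of Psme1 (-0.16 to 0.08 on the log2 scale) and the day 3 difference of Psmb6 (-0.07 to 0.01). The alternatives gave 3450 values for called members and for the 5 immunoproteasome and 3 constitutive catalytic genes. Of these, 3215 kept their side of the threshold, 217 no longer passed and 18 newly passed. Other members that were not called in the main fit are left out of this count, so it understates new calls. At day 5 the members lower in KO numbered 28 (DESeq2) to 37 over the 13 other settings and 36 to 39 with a library left out. At day 3 the lower count was 4 with quantile normalization, 1 without the trend and 3 to 10 with a library left out, and the higher count was 1 to 4 with a library left out. By day in WT the lower count was 12 with median-of-ratios scaling, 0 without the trend, 13 with only the libraries compared, 12 with edgeR and 1 to 16 with a library left out. The higher count there was 1 with only the libraries compared, 1 with edgeR and 0 to 2 with a library left out. By day in KO the lower count was 33 to 35, and the higher count was 0 without the trend, 1 with a robust prior, 1 with only the libraries compared and 0 to 2 with a library left out. Interactions numbered 7 lower without the trend, 14 lower and 1 higher with DESeq2, and 16 to 27 lower and 0 to 1 higher with a library left out. The cause of these changes was not tested.

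Over 18 same-numbered pairs of libraries the correlation of deviations from group means was -0.0138 to 0.0422, with 0 over 0.1. Over 36 other pairs it was -0.055 to 0.0526. Counting error enters these deviations, so values near 0 cannot exclude a mouse or batch shared by replicate number. With the replicate number as a block, 3 members were higher and 7 lower in KO at day 3, and 0 higher and 37 lower at day 5. By day, 2 were higher and 35 lower in KO, 0 higher and 6 lower in WT, and the block gave 0 higher and 24 lower interactions.

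The immunoproteasome share depends on the pairs counted, and so does which genotype has the higher share at day 5. Without Psmb8 and Psmb5 it was 57.1% in KO and 60.4% in WT at day 3, and 64.8% in KO and 68.3% in WT at day 5. Without Psmb9 and Psmb6 it was 63.7% in KO and 66.4% in WT at day 3, and 73.2% in KO and 71.9% in WT at day 5. Without Psmb10 and Psmb7 it was 73.0% in KO and 76.6% in WT at day 3, and 81.2% in KO and 80.3% in WT at day 5. The mean of the 3 pairs was 58.3% in KO and 60.8% in WT at day 3, and 66.1% in KO and 65.8% in WT at day 5. With a library left out it was 66.0 to 66.3% in KO and 69.0 to 70.0% in WT at day 3, and 74.5 to 75.8% in KO and 74.4 to 75.3% in WT at day 5.

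With 3 libraries per group and 1545391 to 2011247 tags each, the standard error of the day 5 difference was widest for Psme2b (0.32), Psmg4 (0.25) and Psmc3ip (0.23).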
